A study of Mus musculus with 6 samples.

Results

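Lgals3, Cd68, Lyz2, C1qa, C1qb, C1qc, Tyrobp, Fcer1g, Csf1r and Adgre1, 10 genes that serve as markers of macrophages, were followed in cultures of mouse aortic smooth muscle cells. They were taken by symbol from tables of 25939 genes, and each symbol matched 1 row. The cultures received trimethylamine N-oxide (TMAO), formed when liver enzymes oxidise a product of gut microbes, or a control treatment, and RNA was taken after 48 h. The series has 3 libraries of TMAO cells and 3 libraries of Control cells. The sources used here give neither the TMAO dose, the vehicle or the passage, nor the number, sex and strain of the mice, nor whether the 3 samples of a group came from separate cultures. The p-values therefore rest on a spread between samples that may be only technical. Levels are in FPKM, that is, fragments divided by exon length in kilobases and by the sequenced total, and the tables imply 14991252 to 16806728 reads per library.

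Macrophages of the artery wall clear debris and lipid, and they are identified by proteins for sensing, uptake and digestion. Csf1r is the receptor for the growth factors CSF1 and IL-34, on which most tissue macrophages depend, and Adgre1 codes for the surface antigen F4/80. Tyrobp (DAP12) and Fcer1g (the Fc receptor gamma chain) are membrane adaptors that pass the signal of activating receptors to the kinase SYK through cytoplasmic motifs called ITAMs. C1qa, C1qb and C1qc code for the chains of C1q, the recognition protein of the classical complement pathway, and Lyz2 for a lysozyme that cuts bacterial cell walls. Cd68 codes for a heavily glycosylated lysosomal membrane protein and Lgals3 for galectin-3, a lectin that binds galactosides. Smooth muscle cells that lose contractile proteins in plaques are also known to express Lgals3. That gene and, to a lesser degree, Cd68 are therefore less restricted to macrophages than the C1q genes, Csf1r and Adgre1.

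The 10 genes spanned a wide range of levels, from 192 FPKM for Lgals3 to 0.505 FPKM for Adgre1 as means over the 6 libraries. Lgals3 ranked 292 and Lyz2, at 73.5 FPKM, ranked 804 among the 25939 listed genes. After them came C1qb at 4.57, Cd68 at 4.22, Fcer1g at 3.94, Tyrobp at 3.42, C1qa at 2.68 and C1qc at 1.80 FPKM, and last Csf1r at 0.768 and Adgre1 at 0.505 FPKM. In this order the library values of Lgals3 (177 to 212 FPKM) did not overlap those of Lyz2 (65.0 to 84.8 FPKM), and those of Lyz2 did not overlap those of C1qb (2.81 to 5.65 FPKM). From C1qb to C1qc each gene overlapped the next, and so did Csf1r and Adgre1, while C1qc (1.38 to 2.18 FPKM) and Csf1r (0.575 to 0.989 FPKM) did not overlap. Lgals3 and Lyz2 together made up 92.3% to 93.2% of the summed FPKM of the 10 genes in TMAO libraries and 91.5% to 93.0% in Control libraries.

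**Figure D1:**
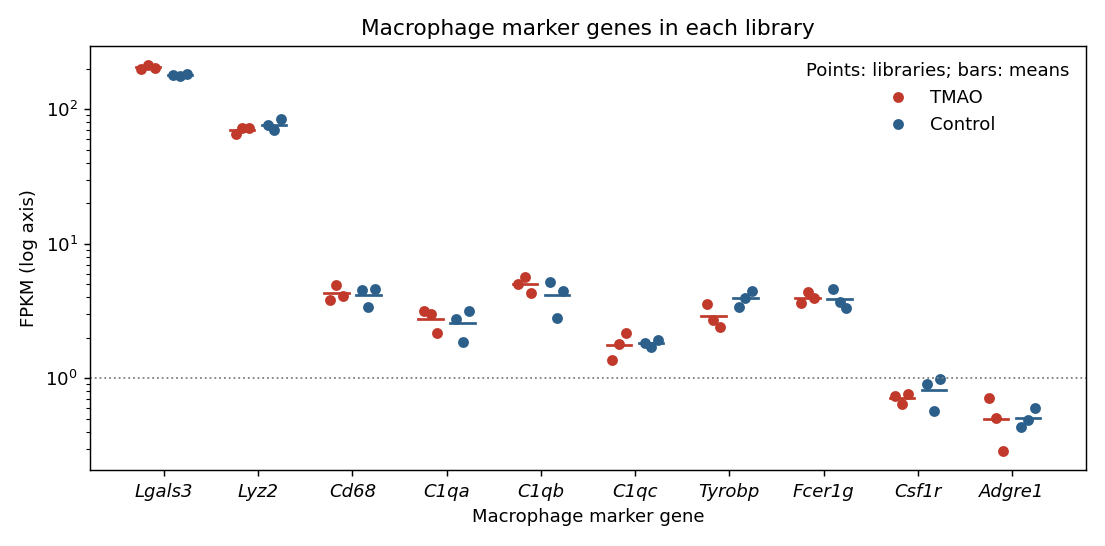
FPKM of the 10 macrophage marker genes on a log axis, with 1 point per library (TMAO left, Control right), bars at the group means and a dotted line at 1 FPKM. Lgals3 and Lyz2 sit above 60 FPKM in every library and Csf1r and Adgre1 below 1 FPKM, and the groups are apart for Lgals3 only.

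The members also differed in their promoter sequence, and CG content did not follow the order of the levels. RefSeq promoter windows of GRCm38.p6, which run from 250 bases before to 50 bases after the start, were matched for 6 of the 10 genes, Lgals3, Lyz2, Cd68, C1qb, C1qc and Fcer1g. The 2 most abundant members are shown because they lie far apart in CpG content, with the pair CG in capitals. The Lgals3 window (chr14:47373610-47373909, plus strand) held 18 CG pairs and 67.0% G or C, while the Lyz2 window (chr10:117282223-117282522, minus strand) held 1 CG pair and 44.3%. The start that RefSeq uses for Lgals3 lies inside the gene's GENCODE interval, downstream of its first base, so that window shows an internal start and not the outermost one. The windows of Cd68, C1qb, C1qc and Fcer1g held 4, 6, 3 and 7 CG pairs, all more than that of Lyz2. Over all 32544 windows of this length the median was 7 CG pairs. Of these windows 70.1% had fewer than that of Lgals3 and 5.4% fewer than that of Lyz2.
Lgals3: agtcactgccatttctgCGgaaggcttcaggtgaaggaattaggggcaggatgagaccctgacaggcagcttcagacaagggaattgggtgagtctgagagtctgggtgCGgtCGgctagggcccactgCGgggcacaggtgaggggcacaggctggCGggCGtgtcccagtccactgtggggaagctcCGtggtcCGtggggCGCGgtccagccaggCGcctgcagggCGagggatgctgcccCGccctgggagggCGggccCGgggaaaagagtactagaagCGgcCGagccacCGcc
Lyz2: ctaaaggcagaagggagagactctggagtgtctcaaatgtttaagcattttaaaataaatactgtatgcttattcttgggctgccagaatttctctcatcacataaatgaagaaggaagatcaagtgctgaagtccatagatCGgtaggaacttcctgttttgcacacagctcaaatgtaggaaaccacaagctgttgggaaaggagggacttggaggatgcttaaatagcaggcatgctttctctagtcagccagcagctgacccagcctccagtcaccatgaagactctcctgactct

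The 6 windows were also searched on both strands for GAGGAA, the core bound by PU.1 (Spi1), the transcription factor of myeloid cells. Cd68, C1qb and C1qc, 3 of the 6, held it on one strand or the other, and 28.1% of all windows did, so the letters are common. The motif does not overlap CG. Cd68 (chr11:69666121-69666420, minus strand) and C1qb (chr4:136886151-136886450, minus strand) are shown with GAGGAA or its reverse complement TTCCTC in capitals. Spi1 itself stood at 0.133 ± 0.0348 FPKM in TMAO cells and 0.110 ± 0.0195 FPKM in Control cells (SD, n = 3 each).
Cd68: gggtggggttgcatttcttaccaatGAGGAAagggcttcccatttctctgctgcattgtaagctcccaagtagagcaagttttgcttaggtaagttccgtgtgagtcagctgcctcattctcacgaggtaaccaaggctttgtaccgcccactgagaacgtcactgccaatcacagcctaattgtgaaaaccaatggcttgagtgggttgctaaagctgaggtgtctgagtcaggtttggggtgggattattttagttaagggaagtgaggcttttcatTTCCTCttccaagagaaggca
C1qb: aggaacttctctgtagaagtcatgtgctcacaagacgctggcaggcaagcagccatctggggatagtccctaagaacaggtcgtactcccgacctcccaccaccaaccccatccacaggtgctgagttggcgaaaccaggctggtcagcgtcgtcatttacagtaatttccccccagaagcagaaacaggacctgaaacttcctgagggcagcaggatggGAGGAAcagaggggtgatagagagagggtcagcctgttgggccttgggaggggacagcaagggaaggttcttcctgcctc

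Against the label of the cultures, markers of the muscle lineage were present unevenly and the defining leukocyte gene was close to 0. Acta2, the actin of smooth muscle, had 483 ± 8.68 FPKM in TMAO cells and 487 ± 2.79 FPKM in Control cells, and 6 of 12 contractile genes averaged at least 1 FPKM. The smooth muscle myosin heavy chain Myh11 and the contractile proteins Tagln and Cnn1 lay below that level in every library. Ptprc (CD45), the phosphatase carried by all leukocytes, stood at 0.0401 ± 0.0161 FPKM in TMAO cells and 0.0399 ± 0.00973 FPKM in Control cells. Of 40 other macrophage and myeloid genes, 39 were analysed here, 7 averaged at least 1 FPKM, 12 averaged under 0.1 FPKM and 8 were at 0 in some library. The 39 had a median level of 0.243 FPKM, against 3.68 FPKM for the 10 members. Their summed level was 67.3 to 73.2 FPKM in TMAO libraries and 74.7 to 80.2 FPKM in Control libraries, most of it from Cd53 and Lyve1.

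Genes of other leukocytes were lower still. All 4 neutrophil genes, all 3 T and NK cell genes and both B cell genes that were analysed averaged under 0.1 FPKM and were at 0 in at least 1 library. Of 8 mast and dendritic cell genes 7 did so, the exception being the transcription factor Zbtb46 at 0.858 ± 0.101 FPKM in TMAO cells and 0.829 ± 0.0174 FPKM in Control cells. In bulk RNA a small number of cells with much RNA of a gene and many cells with little of it cannot be told apart, so these levels give no cell count.

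**Figure D2:**
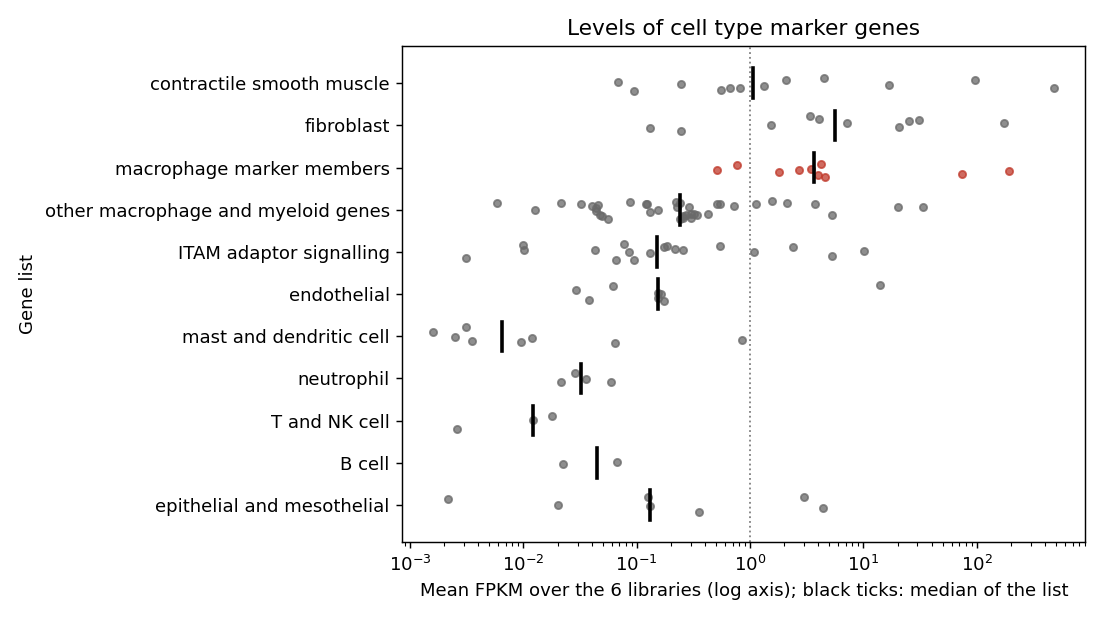
Mean FPKM over the 6 libraries (log axis) of each analysed gene in lists of cell type markers and of ITAM signalling genes, with 1 point per gene, black ticks at list medians and a dotted line at 1 FPKM. The 10 members (red) have a median of 3.68 FPKM, between 5.59 FPKM for fibroblast genes and 1.07 FPKM for contractile genes, and the other macrophage and myeloid genes have one of 0.243 FPKM.

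The comparison asks how TMAO changes gene expression in these cells. None of the 10 macrophage markers passed the test after TMAO. Lgals3 was 14% higher in TMAO cells, with all 3 libraries above Control, and Tyrobp averaged 26.8% lower with overlapping groups, and neither passed once adjusted over all genes. For the other 8 the 95% interval of the log2 fold change included 0. Of 11062 genes that reached at least 1 FPKM in at least 3 libraries, limma on log2(FPKM + 1) called 20 at an adjusted p of 0.05, which is 0.181% of those tested. Of the members 8 were tested, Csf1r and Adgre1 being below the filter, and 0 of 8 were called. Unadjusted p-values were under 0.05 for 2 members, Lgals3 and Tyrobp, and for 13.1% of all tested genes. A test of the reads recovered from the FPKM values (limma with voom) called 1 of the 8, Lgals3, where it called 0.890% of 10893 genes, 0.395% as higher in TMAO cells. The median log2 fold change was 0.03 over the 8 members and 0.025 over all tested genes, with 5 members above 0 and 3 below.

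**Figure D3:**
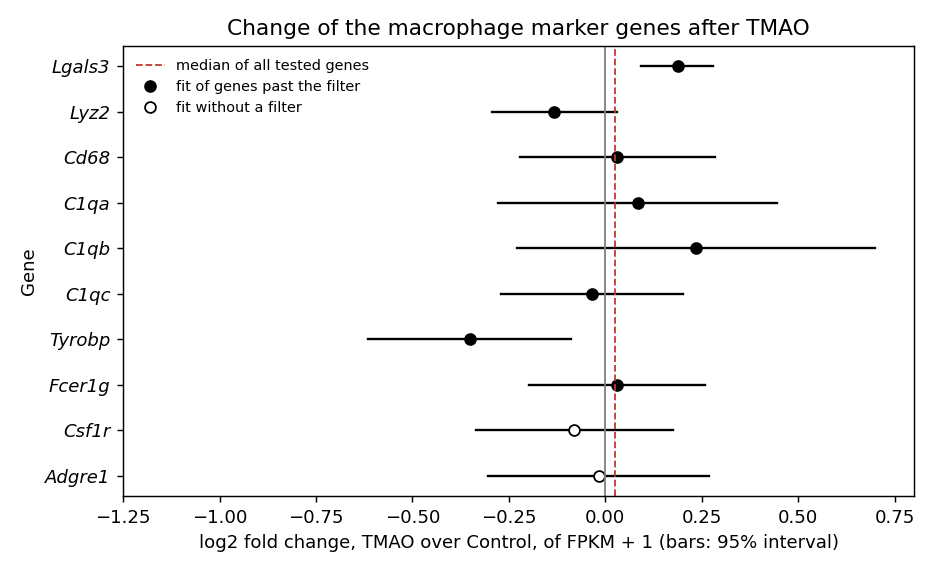
Log2 fold change of FPKM + 1, TMAO over Control, with 95% intervals from limma for the 10 members (filled: genes past the filter; open: fit without a filter), a solid line at 0 and a dashed line at 0.025, the median of all tested genes. The intervals of Lgals3 (0.09 to 0.28) and Tyrobp (-0.61 to -0.09) lie to either side of 0 and the other 8 include it; these intervals are not adjusted for the number of genes.

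Lgals3 (ENSMUSG00000050335, chromosome 14, 47367751 to 47386160, plus strand of mm10) had 200.2, 212 and 202 FPKM in TMAO 1 to 3, against 179, 177 and 184 FPKM in Control 1 to 3. The lowest TMAO library was thus above the highest Control library. Such a separation upward held for 1 of the 10 members and for 12.4% of all tested genes. The values rest on 6146, 6295 and 5629 reads in the TMAO libraries and 4997, 4945 and 5737 reads in the Control libraries. The coefficient of variation was 3.2% in TMAO cells and 2.0% in Control cells, where counting alone gives 1.3% and 1.4%. Its log2 fold change of 0.19 ± 0.042 (SE) had a limma adjusted p = 0.124. On recovered reads it was 0.19 ± 0.044 and the voom and limma adjusted p = 0.0483, just inside the threshold. Over 14 alternatives the value ranged from 0.15 to 0.20 and the adjusted p from 0.0317 to 0.418, with both voom tests below 0.05.

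**Figure D4:**
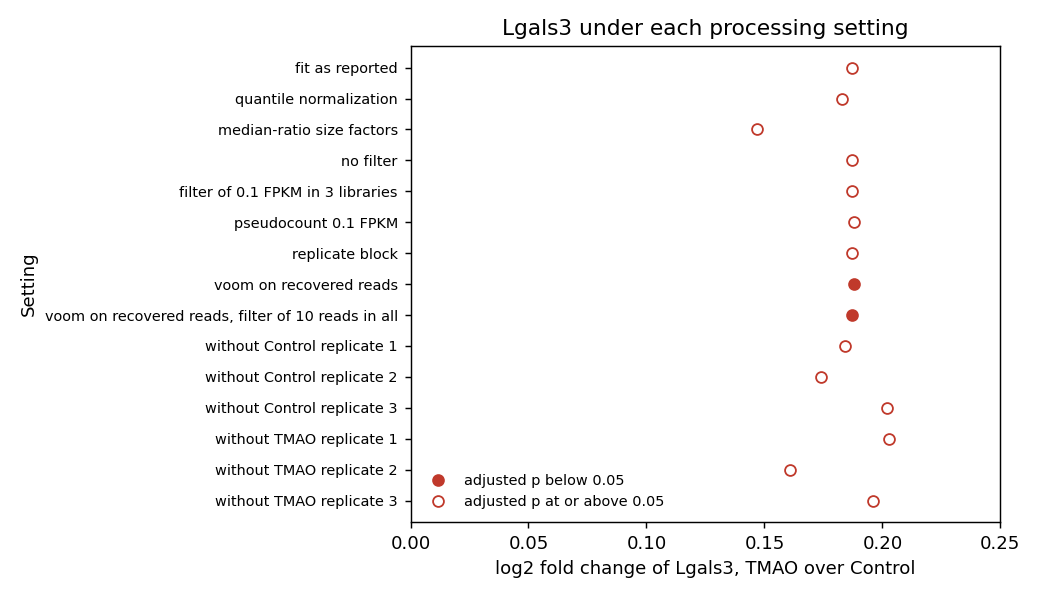
Log2 fold change of Lgals3, TMAO over Control, as reported (top) and under each of 14 alternatives; filled points have an adjusted p below 0.05. All points lie between 0.15 and 0.20, and the filled ones are the 2 tests on recovered reads.

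Lgals9 and Lgals8 had fold changes close to that of Lgals3, and neither passed the main test. Lgals9, a galectin with a pair of sugar-binding domains, averaged 95.04 ± 2.86 FPKM in TMAO cells and 81.9 ± 0.256 FPKM in Control cells (SD, n = 3 each). Its log2 fold change was 0.21 ± 0.041, with adjusted p = 0.0818 by limma and 0.0330 by limma with voom. For Lgals8, of the same build, the value was 0.21 (limma adjusted p = 0.207). Lgals3bp, the secreted glycoprotein that binds galectin-3, had -0.14 (limma adjusted p = 0.463). Lgals1, by far the most abundant galectin, stood at 5911 ± 285 FPKM in TMAO cells and 5835 ± 214 FPKM in Control cells (0.02, limma adjusted p = 0.913). Of the 4 tested relatives 0 were called, with 1 called on recovered reads. An unadjusted p under 0.05 was found for 2 of the 4, against 13.1% of all tested genes.

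The members other than Lgals3, Lyz2 and Cd68 overlapped between the groups in their sum. Over Tyrobp, Fcer1g, C1qa, C1qb, C1qc, Csf1r and Adgre1, the summed level was 18.1, 18.7 and 16.1 FPKM in TMAO 1 to 3 and 19.2, 15.1 and 19.0 FPKM in Control 1 to 3, on 323 to 388 and 288 to 428 reads per library. Of the cell types whose markers were listed, the other macrophage and myeloid genes, fibroblast genes and endothelial genes summed lower in every TMAO library than in any Control library, and neutrophil genes, close to 0, summed higher. Such a sum follows the most abundant genes of its list, and in each list some genes went the other way. The 39 other macrophage and myeloid genes gave the 67.3 to 73.2 FPKM in TMAO libraries and 74.7 to 80.2 FPKM in Control libraries stated above. Most of this came from Cd53 and Lyve1, and of the 7 tested genes 4 had a log2 fold change above 0 and 3 below. The 4 neutrophil genes gave 0.185 to 0.245 FPKM in TMAO libraries and 0 to 0.134 FPKM in Control libraries. The 10 fibroblast genes gave 242 to 266 FPKM in TMAO libraries and 270.5 to 304 FPKM in Control libraries, most of it from Col1a1. Of the 8 tested fibroblast genes 3 had a log2 fold change above 0 and 5 below. In 1 of the 8 all TMAO libraries lay below all Control libraries, as in 6.23% of all tested genes. The 8 analysed endothelial genes gave 13.1 to 13.5 FPKM in TMAO libraries and 15.6 to 17.1 FPKM in Control libraries. Most of it came from Emcn, the only 1 of the 8 that was tested. Egfl7, for 1, averaged higher, at 0.218 FPKM in TMAO cells and 0.106 FPKM in Control cells. The 7 epithelial and mesothelial genes gave 7.40 to 8.16 FPKM in TMAO libraries and 7.51 to 9.05 FPKM in Control libraries. The part of these differences between sums in the Lgals3 difference was not tested. The ratio of the Lgals3 level to the sum of the 7 genes was 11.05, 11.4 and 12.6 in TMAO libraries and 9.35, 11.7 and 9.69 in Control libraries, and the groups overlapped, with Control 2 above TMAO 1 and TMAO 2. The groups did not overlap in the ratio of the Lgals3 level to the Lyz2 level. That ratio, chosen after the values were seen, was 3.08, 2.92 and 2.80 in TMAO libraries and 2.35, 2.53 and 2.17 in Control libraries.

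**Figure D5:**
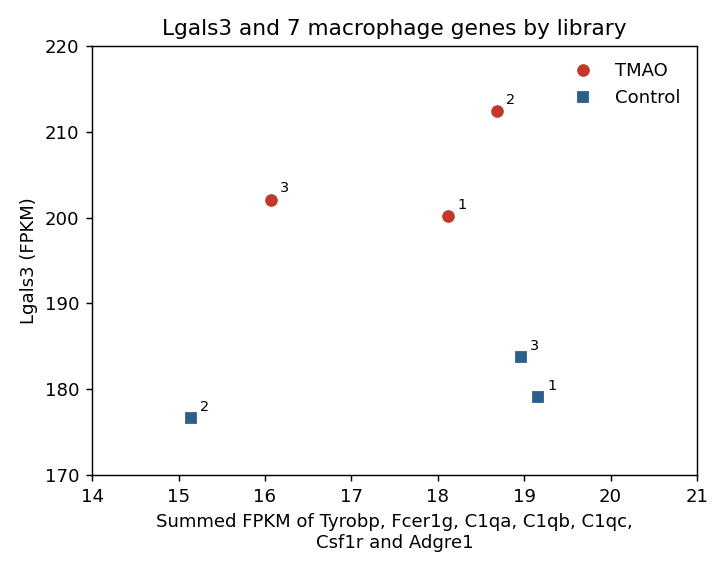
Lgals3 (FPKM) against the summed FPKM of 7 macrophage genes, with 1 point per library labelled by replicate number; the axes do not start at 0. The TMAO libraries (circles) are above all Control libraries (squares) on the vertical axis. On the horizontal axis the TMAO libraries lie within the wider range of the Control libraries, with Control 2 lowest at 15.1 FPKM.

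Lyz2 (ENSMUSG00000069516, chromosome 10, 117277331 to 117282321, minus strand) had 65.0, 72.8 and 72.2 FPKM in TMAO 1 to 3, against 76.1, 70.0 and 84.8 FPKM in Control 1 to 3. Control 2 lay inside the TMAO range. The log2 fold change was -0.13 ± 0.072 with a limma adjusted p = 0.482, and it stayed below 0 in all 14 alternatives (-0.20 to -0.06). Of the 50-base windows of its transcripts 15.4% also occur in Lyz1, the neighbouring lysozyme gene, so the counts of the pair are uncertain. Lyz1 itself was at 0 to 0.158 FPKM in TMAO libraries and 0 to 0.421 FPKM in Control libraries.

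Cd68 (ENSMUSG00000018774, chromosome 11, 69664213 to 69666153, minus strand) had 3.80, 4.94 and 4.09 FPKM in TMAO 1 to 3, against 4.50, 3.38 and 4.64 FPKM in Control 1 to 3. The groups overlapped, with 77 to 99 reads in TMAO libraries and 64 to 98 in Control libraries. Its log2 fold change was 0.03 ± 0.11 with a 95% interval of -0.22 to 0.28 and a limma adjusted p = 0.939, and its sign changed under median-ratio scaling and without Control 2 or TMAO 2. Transcripts of other lysosomal genes were abundant in these cells. All 20 lysosomal genes listed beside Cd68 were tested and had a median level of 95.3 FPKM, led by the membrane proteins Cd63 and Lamp1 at 556 ± 20.7 and 405 ± 6.78 FPKM in TMAO cells and 519 ± 19.3 and 395 ± 8.96 FPKM in Control cells. None was called by either test, and 6 had an unadjusted p under 0.05, against 13.1% of all tested genes. The log2 fold change was above 0 for 13 of the 20. The collagen-degrading cathepsin gene Ctsk had a value of 0.15 (limma adjusted p = 0.164) and the cathepsin gene Ctsz one of -0.13 (limma adjusted p = 0.224).

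The C1q genes form a cluster on chromosome 4, where C1qa (ENSMUSG00000036887, 136895917 to 136898803), C1qc (ENSMUSG00000036896, 136889804 to 136893065) and C1qb (ENSMUSG00000036905, 136880129 to 136886187) lie on the minus strand. C1qa had 3.14, 3.01 and 2.18 FPKM in TMAO 1 to 3, against 2.75, 1.85 and 3.15 FPKM in Control 1 to 3. C1qb had 5.01, 5.65 and 4.29 FPKM in TMAO libraries, against 5.20, 2.81 and 4.48 FPKM in Control libraries. C1qc had 1.38, 1.79 and 2.18 FPKM in TMAO libraries, against 1.83, 1.72 and 1.94 FPKM in Control libraries. All 3 chains overlapped between the groups, and Control 2 was the lowest Control library for each.

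The fold changes of the chains were small against their intervals. The log2 fold change of C1qa was 0.08 ± 0.16 (limma adjusted p = 0.871), with a 95% interval of -0.28 to 0.44. That of C1qb was 0.24 ± 0.19 (limma adjusted p = 0.674), with an interval of -0.23 to 0.70, and it became 0.03 without Control 2. That of C1qc was -0.03 ± 0.11 (limma adjusted p = 0.928), with an interval of -0.27 to 0.20. In reads, C1qb stood at 90, 98 and 70 in TMAO libraries and at 85, 46 and 82 in Control libraries. The exact Poisson interval of the count in Control 2, 33.7 to 61.4 reads, covers counting error only. That interval lies below the counts of the other 5 libraries, but it overlaps the interval of TMAO 3, 54.6 to 88.4 reads. C1qb gave 49.6% to 54.1% of the summed C1q level in TMAO libraries and 44.0% to 53.2% in Control libraries.

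C1q acts with the proteases C1r and C1s and is held in check by the C1 inhibitor, Serping1. Of 15 genes for the C1 complex and for proteins that bind C1q or act downstream, 8 were tested and 0 were called over all genes. Of the 8, 3 had an unadjusted p under 0.05, against 13.1% of all tested genes. The log2 fold change was below 0 for 7 of the 8, with a median of -0.124, against 0.025 over all tested genes. Complement C3, the convergence point of the pathways, averaged 1.38 ± 0.109 FPKM in TMAO cells and 2.16 ± 0.196 FPKM in Control cells, and its log2 fold change was -0.41 ± 0.085, with adjusted p = 0.0982 by limma and 0.0229 by limma with voom. Serping1 averaged 88.3 ± 3.02 FPKM in TMAO cells and 78.3 ± 1.67 FPKM in Control cells (0.17, limma adjusted p = 0.152). Megf10, an engulfment receptor that binds C1q, had -0.28 (limma adjusted p = 0.245). Calr and C1qbp, a calcium-binding chaperone and a mitochondrial protein that both bind C1q, had values of -0.003 and -0.04 (limma adjusted p = 0.984 and 0.830).

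Tyrobp (ENSMUSG00000030579, chromosome 7, 30413760 to 30417585, plus strand) had 3.54, 2.73 and 2.40 FPKM in TMAO 1 to 3, against 3.39, 3.98 and 4.46 FPKM in Control 1 to 3. TMAO 1 lay just above Control 1, and the other 2 TMAO libraries lay below every Control library. Its reads were few, 39, 29 and 24 in TMAO libraries and 34, 40 and 50 in Control libraries. The log2 fold change of Tyrobp was -0.35 ± 0.12, at a limma adjusted p = 0.248, and stayed below 0 in all 14 alternatives (-0.47 to -0.26) with adjusted p from 0.150 to 0.610. On recovered reads it was -0.45 ± 0.24, with a larger SE (voom and limma adjusted p = 0.411).

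Fcer1g (ENSMUSG00000058715, chromosome 1, 171229572 to 171234365, minus strand), the adaptor that acts beside Tyrobp, had 3.60, 4.38 and 3.97 FPKM in TMAO 1 to 3, against 4.65, 3.72 and 3.34 FPKM in Control 1 to 3. The TMAO values lay within the Control range. Its log2 fold change of 0.03 ± 0.10 (limma adjusted p = 0.938; 95% interval -0.20 to 0.26) changed sign under quantile and median-ratio scaling. Among 18 analysed genes listed for ITAM signalling, inhibitory ones included, 4 were tested. Of these 4 genes 0 were called by either test and 0 had an unadjusted p under 0.05. They were the kinase genes Syk, at 2.55 ± 0.162 FPKM in TMAO cells and 2.25 ± 0.278 FPKM in Control cells (0.13, limma adjusted p = 0.576), and Lyn (-0.009, limma adjusted p = 0.967), the inhibitory receptor gene Sirpa (0.03, limma adjusted p = 0.939) and the lectin gene Clec4d (-0.03, limma adjusted p = 0.966).

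Csf1r (ENSMUSG00000024621, chromosome 18, 61100598 to 61132149, plus strand) had 0.744, 0.641 and 0.762 FPKM in TMAO 1 to 3, against 0.900, 0.575 and 0.989 FPKM in Control 1 to 3. The TMAO values lay within the Control range. In the limma fit without a filter its log2 fold change was -0.08 ± 0.11, with a 95% interval of -0.33 to 0.17 and an adjusted p = 0.793 over all 25939 genes. Exons of Hmgxb3 on the opposite strand cover 15.1% of its exon bases, and since the sources used here do not say whether the counting used strand, its level is uncertain. The ligand Csf1 was far above its receptor, at 117 ± 12.4 FPKM in TMAO cells and 123 ± 10.5 FPKM in Control cells (limma adjusted p = 0.774). The level of the other ligand, Il34, named after its values were seen, was 5.54 ± 0.438 and 5.59 ± 0.331 FPKM in TMAO and Control cells. Of the 5 tested genes of the axis, with Cbl, Grb2 and Sh2b3, which act downstream, 0 were called by either test and 0 had an unadjusted p under 0.05.

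Adgre1 (ENSMUSG00000004730, chromosome 17, 57358691 to 57483527, plus strand) had 0.710, 0.503 and 0.288 FPKM in TMAO 1 to 3, against 0.432, 0.492 and 0.606 FPKM in Control 1 to 3. The TMAO libraries were both the highest and the lowest of the 6, on 38, 26 and 14 reads, against 21, 24 and 33 reads in the Control libraries. In the limma fit without a filter its log2 fold change was -0.02 ± 0.12 (adjusted p = 0.981 over all 25939 genes; 95% interval -0.30 to 0.27). For the 8 members other than Lgals3 and Lyz2, counting alone gives a coefficient of variation of 10.9% (Cd68 and C1qb in TMAO cells) to 20.9% (Adgre1 in TMAO cells). The observed values ran from 6.1% for C1qc in Control cells to 42.1% for Adgre1 in TMAO cells.

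Among the other macrophage and myeloid genes, 7 were tested and 0 were called by either test. An unadjusted p under 0.05 was found for 3 of them, against 13.1% of all tested genes. Cd53, a tetraspanin of leukocytes, averaged 30.8 ± 1.26 FPKM in TMAO cells and 36.0 ± 1.97 FPKM in Control cells (-0.22 ± 0.054, limma adjusted p = 0.143). Lyve1, a hyaluronan receptor of lymphatic endothelium and some resident macrophages, averaged 18.3 ± 1.34 FPKM in TMAO cells and 21.7 ± 0.771 FPKM in Control cells (-0.24 ± 0.061, limma adjusted p = 0.154). Mpeg1, a pore-forming protein of macrophages, averaged 1.296 ± 0.0624 FPKM in TMAO cells and 0.937 ± 0.188 FPKM in Control cells (0.25 ± 0.097, limma adjusted p = 0.307). Of the 7 tested genes 1 lay wholly above Control and 2 wholly below, where 12.4% and 6.23% of all tested genes did so. They are the 3 genes just described, which have the smallest unadjusted p of the 7, a choice that favours groups without overlap. Cd14, the lipopolysaccharide co-receptor, stood at 5.14 ± 0.487 FPKM in TMAO cells and 5.40 ± 1.08 FPKM in Control cells (-0.05, limma adjusted p = 0.905).

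Control 2 was the lowest of the Control libraries for 7 of the 10 members, Lgals3, Lyz2, Cd68, C1qa, C1qb, C1qc and Csf1r. The share of all tested genes with their lowest Control value in Control 2 was not computed, so the count describes the members only. Without it the log2 fold changes of Cd68 and C1qa were -0.08 and -0.07, and that of Lgals3 was 0.17 (limma adjusted p = 0.243).

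Genes associated with foam cells and with smooth muscle cells that have lost the contractile state were tested in 19 of 22 cases, and 1 was called, Spp1 (osteopontin), a secreted glycoprotein that macrophages also make. It fell to 1388 ± 22.7 FPKM in TMAO cells, against 1784 ± 67.3 FPKM in Control cells (log2 fold change -0.36 ± 0.043, limma adjusted p = 0.00876). Lgals3, which belongs to the same modulated state in plaques, had a positive value in the same libraries. The lipid droplet gene Plin2 had 0.15 (limma adjusted p = 0.207) and the lysosomal glycoprotein gene Gpnmb -0.16 (limma adjusted p = 0.324). Of 6 tested contractile genes and 8 tested fibroblast genes 0 were called by either test, with 2 and 3 at an unadjusted p under 0.05. Over all tested genes that share was 13.1%.

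By Pearson correlation of log2(FPKM + 1) over the 6 libraries among 10001 tested genes, given as a description, the genes most like Lgals3 were Nol12 (r = 0.998), Rpl7a (0.993), Ppie (0.992), Vdac2 (0.990) and Mrpl54 (0.989). None of the 5 was called, and their log2 fold changes ran from 0.10 for Nol12 to 0.16 for Ppie. Those most like Cd68 were Tusc3 (0.990), Mettl23 (0.984), Msl3 (0.984), Tmem33 (0.984) and the pseudogene Atp5l2-ps (0.981). The points share libraries and depth.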

How the data were processed

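The authors deposited 1 table per library with FPKM values. Per the submitters' processing notes, Trimmomatic, HISAT2, Cufflinks, HTSeq and the build mm10 were used, with no versions. Per the labels' protocols, libraries came from a stranded mRNA kit. The sources used here give no annotation release or strand setting. Per the file headers the unit of Control 1 is spelled PKM. Reads were recovered as FPKM × exon length (GENCODE M21, mm10) × library total. Of 25885 genes with a length, 25499 (98.5%) were whole to within 0.01 reads in all 6 libraries.

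The test was limma 3.58.1 (R 4.3.3; trended, robust variance) on log2(FPKM + 1), which understates the change of low genes, for genes at 1 FPKM or more in 3 or more libraries, Benjamini-Hochberg adjusted, two-sided. Members below the filter were read from the same fit without a filter. Intervals of reads are exact Poisson intervals at 95%.

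Members, lists and tests were chosen with earlier results of these data known. All 10 members are described, and from each other list the 3 tested genes with the smallest p and the 3 with the highest level were eligible; 1 eligible gene is not reported here, and any other gene named is a defining marker or is said to have been picked with its values known. Replicates differed beyond counting noise, with a chi-square per gene of 3.16 to 7.77 between pairs. The scripts were tested on simulated data. Python 3.11.15, pandas 2.3.3 and matplotlib 3.10.9 were used. Alternatives were 2 scalings, 2 filters, a pseudocount of 0.1, the replicate block, voom with 2 filters, and each library left out.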

Additional observations from a re-analysis of the deposited data

How the results depend on the processing

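The count of 0 members called by limma held in 12 of 14 alternatives, and both tests on recovered reads gave 1, Lgals3 (log2 fold change 0.19 in each). Over all genes the count of 20 became 97 with voom on recovered reads, 148 with voom and a filter of 10 reads in all, and 0 with no filter, where 1999 genes had an unadjusted p under 0.05. Leaving out 1 library gave 11 to 58, with 11 without Control 3, 13 without TMAO 1 and 58 without TMAO 2. The cause was not tested.

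Of 136 recomputed log2 fold changes of members, 125 kept their sign and 2 passed the threshold. The 11 that changed sign were small. Cd68 had -0.001 and Fcer1g -0.002 with median-ratio size factors, and Fcer1g had -0.005 with quantile normalization. The others arose from leaving out 1 library, where Cd68 ranged from -0.084 to 0.098 (sign changed without Control 2 or TMAO 2), C1qa from -0.072 to 0.204 (Control 2), C1qc from -0.136 to 0.073 (TMAO 1), Fcer1g from -0.055 to 0.136 (Control 3 or TMAO 2) and Adgre1 from -0.116 to 0.088 (Control 3 or TMAO 3). Lgals3, Lyz2, Tyrobp, C1qb and Csf1r kept their sign in every alternative run.

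Same-numbered libraries did not deviate together (correlations of -0.09, -0.10 and 0.06), so the numbers were not taken as pairs. With the replicate block 22 genes and 0 members were called. Few reads limit the 8 weaker members, the least being 14 reads for Adgre1 in TMAO 3.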

Other observations

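Some genes used as markers of endothelium or leukocytes stood far above the other markers of the same cells. Lyz2 averaged 73.5 FPKM, Cd53 33.4 FPKM and Lyve1 20.02 FPKM over the 6 libraries, where Ptprc averaged 0.0400 FPKM. Emcn, a sialomucin of vascular endothelium, averaged 12.3 ± 0.192 FPKM in TMAO cells and 15.8 ± 0.685 FPKM in Control cells (SD, n = 3 each), while the junction gene Cdh5 stood at 0.0344 ± 0.0212 FPKM in TMAO cells and 0.0242 ± 0.0292 FPKM in Control cells. The log2 fold change of Emcn was -0.33 ± 0.055, with a limma adjusted p = 0.0504 and a voom and limma adjusted p = 0.00563. Emcn, Cd53 and Lyve1 were each lower in all 3 TMAO libraries than in every Control library, as were 6.23% of all tested genes. Cd53 and Lyve1 have the smallest unadjusted p of the tested genes in their list, a choice that favours such a separation.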
